A study of Mus musculus with 32 samples.

Results

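Mt1, Mt2, Slc30a1, Slc30a10, Slc39a14 and Slc39a8, 6 of the 47643 genes counted, were followed in liver and in the epididymal fat pad, a white adipose tissue (eWAT), of male mice, in a study of whether dietary protein alters the response to a glucocorticoid. They were picked as genes whose products bind zinc or belong to the families of zinc transporters. No cut on measured values was used, but the choice was made with earlier results of these data known. The remaining transporters of these families are in a separate list below. The mice were C57BL/6J males (C57BL/6 in the labels), 10 weeks old, with no transgene or deletion. For 7 days they ate purified whey-based food with 20% (NPD) or 60% (HPD) of the calories as protein, the HPD holding less carbohydrate, so that effects of more protein and of less carbohydrate cannot be told apart. Their drinking water held corticosterone (Cort), the main glucocorticoid of mice, or the ethanol vehicle (Veh), and food was withdrawn before tissues were taken. Each tissue had 4 groups, Veh or Cort on either diet (written Veh NPD, Cort HPD and so on), of 4 libraries, 32 in all, read from the 3′ end of transcripts (QuantSeq). The labels do not say whether an eWAT and a liver library with the same number came from 1 mouse.

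Metallothioneins are small, cysteine-rich proteins that hold zinc and copper in the cytosol, and liver and fat are among the tissues that make them. Their genes are classical targets of the metal-sensing factor MTF-1, which binds metal response elements, and of the glucocorticoid receptor. Zinc leaves the cytosol through transporters of the Slc30 (ZnT) family and enters it through those of the Slc39 (ZIP) family. Slc30a1 sits in the plasma membrane and exports zinc, and its gene is an MTF-1 target as well. Slc30a10 exports manganese from hepatocytes into bile. Slc39a14 and Slc39a8 are related importers that carry zinc, manganese and iron, and liver Slc39a14 is known to rise in inflammation.

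Mt2 and Mt1 are neighbours on the plus strand of chromosome 8 (GRCm38 coordinates from GENCODE). Mt2 spans chr8:94172664-94173568 and Mt1 spans chr8:94179082-94180327, with 5513 bases between the end of the first and the start of the second. Slc30a1 lies at chr1:191906767-191913247, Slc30a10 at chr1:185454848-185468762, Slc39a8 at chr3:135825279-135888572 and Slc39a14, on the minus strand, at chr14:70303469-70351425. RefSeq promoter windows of 300 bases, 250 before and 50 after a transcript start, were matched for 5 of the 6 genes. The windows of Mt2, Mt1 and Slc30a1 are shown because these are the genes in which metal response elements are best known, and because Mt1 and Mt2 moved together below. Capitals mark each match to the core of the metal response element, TGCACNC or TGCGCNC on either strand.
Mt2, chr8:94172368-94172667, plus strand, GRCm38.p6
Mt2: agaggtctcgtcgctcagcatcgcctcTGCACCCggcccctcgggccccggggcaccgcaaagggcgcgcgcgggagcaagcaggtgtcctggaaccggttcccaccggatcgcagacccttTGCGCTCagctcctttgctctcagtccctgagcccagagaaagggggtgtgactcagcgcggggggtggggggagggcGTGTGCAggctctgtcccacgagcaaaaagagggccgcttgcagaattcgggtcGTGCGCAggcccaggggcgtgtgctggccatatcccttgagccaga
Mt1, chr8:94178839-94179138, plus strand, GRCm38.p6
Mt1: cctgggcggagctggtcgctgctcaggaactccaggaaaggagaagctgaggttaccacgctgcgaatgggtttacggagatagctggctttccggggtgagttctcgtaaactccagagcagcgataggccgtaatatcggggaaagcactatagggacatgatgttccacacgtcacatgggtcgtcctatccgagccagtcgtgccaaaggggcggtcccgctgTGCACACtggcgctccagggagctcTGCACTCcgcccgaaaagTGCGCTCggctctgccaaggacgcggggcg
Slc30a1, chr1:191906531-191906830, plus strand, GRCm38.p6
Slc30a1: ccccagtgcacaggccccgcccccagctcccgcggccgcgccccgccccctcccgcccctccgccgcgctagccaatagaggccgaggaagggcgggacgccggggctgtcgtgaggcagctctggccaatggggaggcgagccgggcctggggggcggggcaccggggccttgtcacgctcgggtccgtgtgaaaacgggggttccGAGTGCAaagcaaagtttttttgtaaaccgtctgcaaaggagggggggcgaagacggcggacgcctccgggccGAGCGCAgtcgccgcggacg

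The Mt2 window held 4 matches to the core, the Mt1 window 3 and the Slc30a1 window 2. The Slc30a10 window held 3, of which a pair overlap on opposite strands, and the 2 windows of Slc39a8 held 0 and 1. Among 32851 promoter windows of the same length, 25.7% held at least 1 match, 7.11% at least 2 and 0.517% at least 4. The Mt1 matches began 23 bases before and 2 and 20 bases after the annotated start of its window. Those of Mt2 were spread from 223 bases before to 4 bases after the annotated start. Whether most transcripts begin at these starts was not examined, and matches outside the windows were not searched. The 15-base glucocorticoid receptor palindrome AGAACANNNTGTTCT was in none of the members' windows and in 0.00913% of all windows. The core of the antioxidant response element, TGACNNNGC, occurred in 1 window each of Mt2, Slc30a1 and Slc39a8 and in 12.4% of all windows. These are matches of letters in a short window, and no binding was measured.

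Library totals lay between 8933307 and 18057936 counts. Values below are CPM, the count divided by the library total times edgeR's TMM scaling factor, per 1000000. The factors were fitted within each tissue, so CPM of eWAT and liver are not on a common scale. Defining markers matched the tissue labels in the 31 libraries fitted. The 5 adipocyte genes summed to 24606 to 32812 CPM in eWAT and 20.9 to 84.2 in liver. The 6 hepatocyte genes summed to 72808 to 257121 CPM in liver and 33.7 to 88.7 in eWAT. Liver Veh HPD replicate 4 was kept out of the fits by a choice made with earlier results of these data known. The study's methods do not name it, so its values are given separately and results that change with it are given both ways. Its hepatocyte genes summed to 38896 CPM, below every other liver library, and its adipocyte genes to 56.2 CPM. Its 6 macrophage genes summed to 371 CPM and its 4 exocrine pancreas genes to 85.0 CPM. The other liver libraries held at most 280 and 55.4 CPM of these. Its TMM factor was 1.45, against at most 1.11 in the liver fit. In eWAT Cort HPD replicate 4 the 7 epididymis genes summed to 10166 CPM, against at most 11.6 in the other eWAT libraries. In liver Cort NPD replicate 3 the 4 skeletal muscle genes summed to 406 CPM, against at most 34.1 in the other liver libraries. In liver Veh HPD replicate 1 the 4 exocrine pancreas genes summed to 55.4 CPM, against at most 6.63 in the other liver libraries fitted. Of the 4 glucocorticoid target genes checked, Fkbp5 rose with Cort on the NPD in eWAT (log2 fold change 1.74) and liver (2.23), whereas on the HPD its changes of 0.60 and 1.15 did not pass the test. On the HPD, Zbtb16 fell with Cort by 1.24 on the log2 scale in eWAT and by 2.80 in liver, and Per1 fell by 1.59 in liver. The eWAT call of Zbtb16 was lost without any 1 of Veh HPD replicates 2, 3 and 4 or Cort HPD replicates 1, 3 and 4 (-0.97 to -1.37, edgeR adjusted p = 0.051 to 0.12), the liver call without Veh HPD replicate 2 or Cort HPD replicate 2 (-2.20 and -2.76, adjusted p = 0.066 and 0.053), and the eWAT call of Fkbp5 without Veh NPD replicate 3 (1.58, adjusted p = 0.055). Tsc22d3 passed in none of these comparisons, with values from -0.13 to 0.81.

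In eWAT, Cort raised both metallothionein genes on both diets, by more on the NPD than on the HPD in the fitted values. Mt1 in Veh NPD was 785, 989, 349 and 880.3 CPM in replicates 1 to 4, and in Cort NPD it was 3718, 3629, 4605 and 3243 CPM. Even the lowest Cort NPD library lay far above the highest Veh NPD library, so the groups did not overlap. On the HPD, Mt1 was 548, 1201, 610.4 and 1192 CPM with Veh and 3384, 2863, 4097 and 2901 CPM with Cort. Here too every Cort library was above every Veh library. The group means were 751 ± 281, 888 ± 358, 3799 ± 576 and 3311 ± 575 CPM (SD, n = 4), with Veh on the NPD and HPD and then Cort on the NPD and HPD. The log2 fold change of Mt1 with Cort was 2.34 ± 0.33 (SE) on the NPD, or 5.06-fold (edgeR quasi-likelihood test, adjusted p = 0.00061), and 1.90 ± 0.33 on the HPD, or 3.74-fold (adjusted p = 0.0031). Without the library that held epididymis transcripts, the change on the HPD was 1.96 (edgeR adjusted p = 0.0063). In the same libraries the skeletal muscle genes summed to 60.6 to 197 CPM in Veh NPD and 10.3 to 23.8 CPM in Cort NPD, and the red blood cell genes to 5247 to 9265 CPM in Veh HPD and 12676 to 25839 CPM in Cort HPD, and their part in the change was not tested. The adipocyte and macrophage sums of Veh and Cort libraries overlapped on both diets, but single genes within them separated in both directions. On the NPD, every Cort library was lower for Adipoq (5397 to 8403 CPM with Veh, 3675 to 4955 with Cort), Adgre1, Csf1r and Mrc1. Lep (443 to 1468 and 1623 to 2961 CPM) and Cidec were higher. On the HPD, Adipoq and Adgre1 were lower and Lep and Cd68 higher. The other genes of these lists overlapped, and none was tested as a part of the change. In a whole tissue, more RNA per cell and more cells that express the gene cannot be told apart.

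Mt2 followed the same order of groups. It was 442, 645, 193 and 589 CPM in Veh NPD and 2525, 2515, 3248 and 2198 CPM in Cort NPD. On the HPD it was 248, 858, 322 and 700.2 CPM with Veh and 2051, 1655, 2334 and 1647 CPM with Cort. Neither pair of groups overlapped. The log2 fold change with Cort was 2.49 ± 0.43 (SE) on the NPD, or 5.61-fold (edgeR adjusted p = 0.0031), and 1.86 ± 0.42 on the HPD, or 3.62-fold (edgeR adjusted p = 0.020). The call on the HPD was lost when Veh HPD replicate 1 (1.62, edgeR adjusted p = 0.051), replicate 3 of the same group (1.68, adjusted p = 0.061) or Cort HPD replicate 3 (1.75, adjusted p = 0.053) was left out, whereas it was kept without the library with epididymis transcripts (1.92, adjusted p = 0.034).

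Across all 15187 genes tested in eWAT, 7.98% were called for Cort on the NPD and 6.09% for Cort with the HPD. Of the 5 members tested (Slc30a10 had no counts there), 2, Mt1 and Mt2, were called in each. The shares of all genes whose groups did not overlap were 14.9% and 11.2%, and the same 2 members of 5 did not overlap in either comparison. The difference between the Cort responses on the HPD and the NPD, the interaction of diet and Cort, was -0.44 ± 0.45 (SE) for Mt1 and -0.63 ± 0.58 for Mt2 on the log2 scale and passed for neither gene (edgeR adjusted p = 0.99 for both), nor for the other 3 members tested. Over all genes 0.0132% were called for this interaction. The larger fitted response on the NPD therefore did not exceed the spread between libraries. HPD against NPD gave 0.24 ± 0.32 for Mt1 and 0.19 ± 0.41 for Mt2 in Veh mice, and -0.19 ± 0.32 and -0.44 ± 0.41 in Cort mice (edgeR adjusted p = 0.95, 0.97, 0.90 and 0.79). No member was called for diet in eWAT, where 0.0593% of all genes were called in Veh mice and 0.487% in Cort mice. At an unadjusted p under 0.05, 0 of 5 were below for diet in Veh mice, 1 (Slc30a1) in Cort mice and 0 for the interaction. Limma voom called 0 of 5 in each. DESeq2 also called 0, but it gave no adjusted p for Slc39a14 with diet in Veh mice. It gave none either for Slc30a1, Slc39a14 and Slc39a8 in the interaction. The comparisons of a tissue share libraries, so their results are not independent of each other.

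**Figure D1:**
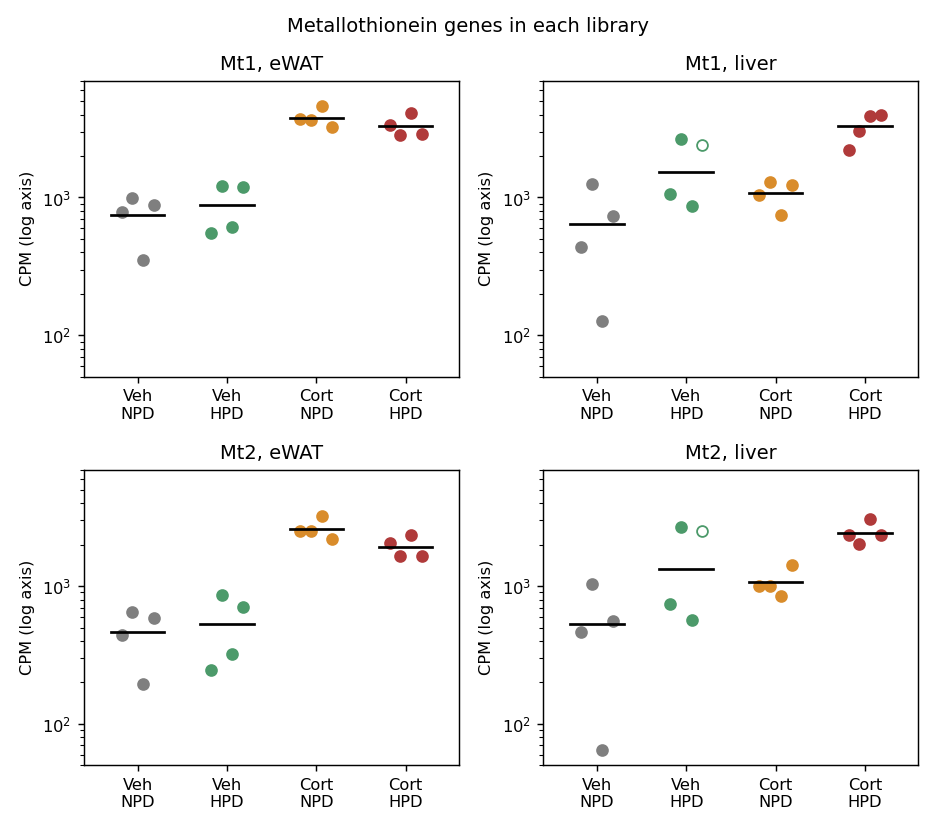
Mt1 (top) and Mt2 (bottom) in CPM on a log axis, in eWAT (left) and liver (right), with 1 point per library, groups along the horizontal axis, the bar at the arithmetic group mean, and the open circle for liver Veh HPD replicate 4, which is outside the mean. In eWAT the Cort libraries, 2863 to 4605 CPM for Mt1, all lie above the Veh libraries, 349 to 1201 CPM, whereas in liver the Veh libraries spread from 126 to 2644 CPM.

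In liver the metallothionein genes varied more between mice of a group, and Cort against Veh did not pass the test on either diet. Mt1 in Veh NPD was 438, 1247, 126 and 737 CPM, with replicate 3 far below the others. In Cort NPD it was 1043, 1300.1, 749 and 1229.7 CPM, a narrower range that lay almost wholly inside that of Veh NPD. In Veh HPD it was 1059, 2644 and 863 CPM in replicates 1 to 3, and 2405 CPM in the library left out. In Cort HPD it was 2215, 3037, 3890.2 and 3998 CPM, the highest group of the 4. The means were 637 ± 477 (n = 4), 1522 ± 977 (n = 3), 1081 ± 246 (n = 4) and 3285 ± 833 (n = 4) CPM (SD) in the same order of groups. The SD was 74.9% of the mean in Veh NPD and 64.2% in Veh HPD, but 22.8% and 25.4% in the Cort groups.

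Mt2 in liver was 466, 1043, 64.4 and 557 CPM in Veh NPD and 995, 999.8, 843 and 1416 CPM in Cort NPD. It was 742, 2701 and 569 CPM in Veh HPD replicates 1 to 3, with 2504 CPM in the library left out, and 2345, 2009.8, 3047 and 2363 CPM in Cort HPD. As with Mt1, replicate 3 was the lowest of Veh NPD and replicate 2 stood above the other Veh HPD libraries in the fit. With Cort, Mt1 had fitted differences of 0.76 ± 0.56 (SE, log2) on the NPD and 1.11 ± 0.62 on the HPD (edgeR adjusted p = 0.44 and 0.31), and Mt2 of 0.999 ± 0.67 and 0.87 ± 0.73 (adjusted p = 0.39 and 0.51). All 4 estimates are positive and none is larger than its error by enough to pass.

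The comparison in which the liver groups separated was HPD against NPD in Cort mice. All 4 Cort HPD libraries were above all 4 Cort NPD libraries for both genes, from 2215 against at most 1300.1 CPM for Mt1 and from 2009.8 against at most 1416 CPM for Mt2. The log2 difference was 1.60 ± 0.57 (SE) for Mt1, or 3.04-fold, and 1.20 ± 0.67 for Mt2, or 2.29-fold. Neither passed in the fit of all liver groups (edgeR quasi-likelihood test, unadjusted p = 0.017 and 0.0996, adjusted p = 0.13 and 0.34). In a fit of the Cort groups alone, both passed (Mt1 1.61, edgeR adjusted p = 0.00054, and Mt2 1.21, adjusted p = 0.0019). That fit also filtered and scaled the genes anew, and 559 of its 11442 genes were called. Why its result differed was not tested. With DESeq2 on all liver groups, Mt1 but not Mt2 passed (1.61, adjusted p = 0.029). In Veh mice the diet difference was 1.26 ± 0.60 for Mt1 and 1.33 ± 0.71 for Mt2, with overlapping groups (edgeR adjusted p = 0.55 and 0.60). With the library left out added back, these became 1.45 and 1.61 (edgeR adjusted p = 0.25 and 0.28). The interaction of diet and Cort was 0.35 ± 0.83 for Mt1 and -0.13 ± 0.97 for Mt2 (adjusted p = 0.90 and 0.97). In the same libraries the 5 red blood cell genes summed to 5267 to 7617 CPM in Cort HPD and 1356 to 3540.3 CPM in Cort NPD, and the hepatocyte genes to 145648 to 257121 and 107574 to 126261 CPM. Their part in the difference was not tested.

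Of 12391 genes tested in liver, 12.6% were called for Cort on the NPD, 9.89% for Cort on the HPD, 0.169% for diet in Veh mice, 5.88% for diet in Cort mice and 0.113% for the interaction. Against these, the members called were 0, 1, 0, 0 and 0 of 6, the single call being Slc39a14 for Cort on the HPD. At an unadjusted p under 0.05 in edgeR's test, 0 of 6 were below for Cort on the NPD, 2 for Cort on the HPD, 3 for diet in Veh mice, 3 for diet in Cort mice and 1 for the interaction. DESeq2 and limma voom called 0, 1, 0, 0 and 0 as well, apart from the 1 call of Mt1 by DESeq2 for diet in Cort mice. Groups did not overlap for 18.5%, 21.2%, 9.47% and 13.3% of all genes in the 4 pairwise comparisons, in that order, and for 0, 1, 1 and 2 of the members.

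Whether the Cort response differed between tissues was tested in 1 fit of 31 libraries. On the NPD the response of Mt1 differed by -1.53 ± 0.64 (SE, log2, liver minus eWAT) and that of Mt2 by -1.44 ± 0.77 (edgeR unadjusted p = 0.025 and 0.075, adjusted p = 0.21 and 0.38). On the HPD the differences were -0.83 ± 0.66 and -1.02 ± 0.80 (adjusted p = 0.62 and 0.61). No member passed on either diet, where 3.85% and 3.12% of 16482 genes were called. At an unadjusted p under 0.05, 2 of 5 were below on the NPD (Mt1 and Slc30a1) and 0 on the HPD, and DESeq2 and limma voom called 0. The NPD difference for Mt1 passed once liver Veh NPD replicate 3, the library with the lowest Mt1, was left out (-1.87, edgeR adjusted p = 0.038). A call in eWAT and none in liver is thus not by itself a difference between the tissues.

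Mt1 and Mt2 moved together from mouse to mouse. After removal of group means, the Pearson correlation of their log2 CPM was 0.98 over 16 eWAT libraries and 0.95 over 15 liver libraries, which share library and depth and are given as a description. The longest run of bases shared by the last 300 bases of the Mt1 and Mt2 transcripts was 16. The last 300 bases of Mt2, but not those of Mt1, shared a run of at least 30 bases with 1 other gene, Pip5k1a, so reads of that stretch are uncertain for Mt2. The ratio of Mt1 to Mt2 counts within a library, which no scaling affects, was 1.45 ± 0.03 (SD, n = 4) in eWAT Cort NPD, from 1.42 to 1.48, and 1.72 ± 0.05 in eWAT Cort HPD, from 1.65 to 1.76. These ranges did not overlap, although neither gene alone passed for that comparison. In Veh mice the eWAT ratio was wider, 1.65 ± 0.16 on the NPD and 1.80 ± 0.34 on the HPD. In liver it was 1.03 ± 0.20 in Cort NPD and 1.36 ± 0.32 in Cort HPD, with overlapping ranges of 0.87 to 1.30 and 0.94 to 1.69. The contrast of the ratios was noticed after the values were seen and was not tested.

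**Figure D2:**
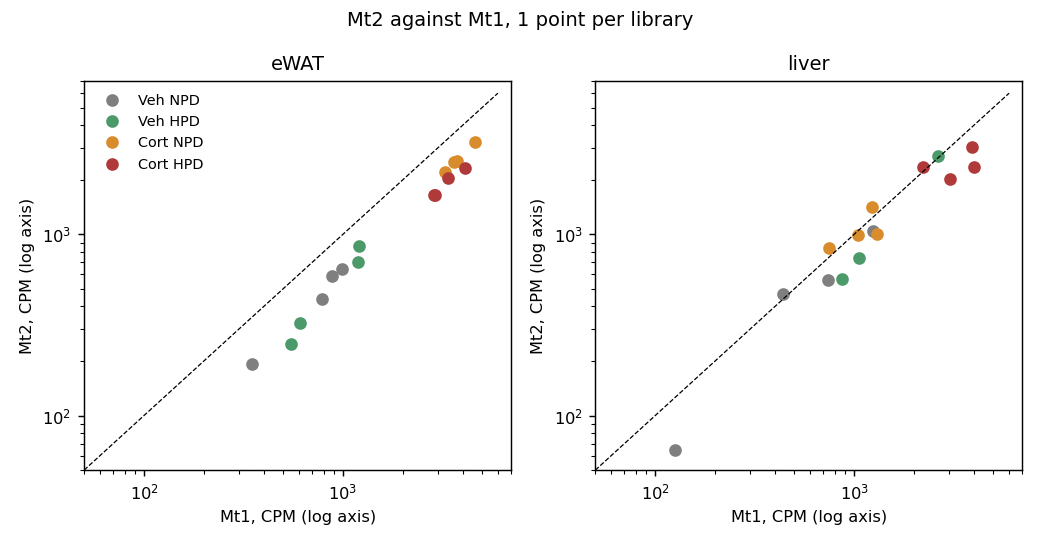
Mt2 against Mt1 in CPM, both on log axes, with 1 point per library, eWAT left and liver right, coloured by group, and a dashed line where both values are equal. The points of each tissue lie along a narrow band, the eWAT points below the line (Mt1 to Mt2 ratio 1.40 to 2.21) and the liver points on both sides of it (0.87 to 1.96).

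Among the member transporters, Slc39a14 in liver gave the only call in a comparison within a tissue. It was 50.8, 52.2 and 37.9 CPM in Veh HPD replicates 1 to 3 and 23.6, 28.4, 27.4 and 31.5 CPM in Cort HPD, so that every Cort library was below every Veh library of the fit. Cort lowered it on the HPD by a log2 fold change of -0.76 ± 0.18 (SE), to 0.59 of the Veh level (edgeR adjusted p = 0.0085). The library left out held 27.5 CPM, inside the Cort HPD range, and with it the change was -0.59 and no longer passed (edgeR adjusted p = 0.067). It was also lost without Veh HPD replicate 2 (-0.66, edgeR adjusted p = 0.051). On the NPD, 28.2, 45.4, 33.6 and 31.2 CPM with Veh and 31.5, 29.8, 39.3 and 41.1 CPM with Cort gave a difference of 0.04 ± 0.17 (adjusted p = 0.92). The change on the HPD minus that on the NPD was -0.80 ± 0.25, with an unadjusted p of 0.0036 and an adjusted p of 0.20 in edgeR. HPD against NPD gave 0.44 ± 0.18 in Veh mice and -0.36 ± 0.17 in Cort mice (edgeR unadjusted p = 0.021 and 0.046, adjusted p = 0.42 and 0.22). The 6 macrophage genes summed to 167 to 210.3 CPM in liver Veh HPD and 101 to 209 CPM in Cort HPD, the red blood cell genes to 1910 to 3465 and 5267 to 7617 CPM, and the hepatocyte genes to 72808 to 84313 and 145648 to 257121 CPM. Their part in the change was not tested. In eWAT, Slc39a14 lay between 0.55 and 6.71 CPM and no comparison passed, with log2 differences from -0.87 ± 0.56 (Cort on the NPD) to 0.41 ± 0.79 (interaction).

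Slc30a1, the zinc exporter whose promoter window also held cores of the metal response element, had positive diet differences (HPD minus NPD) in 3 of 4 comparisons, none of which passed. In liver it was 31.4, 27.4, 33.0 and 32.8 CPM in Veh NPD and 47.7, 46.7 and 36.5 CPM in Veh HPD replicates 1 to 3, without overlap, and 52.9 CPM in the library left out. With Cort it was 32.5, 27.2, 43.3 and 41.2 CPM on the NPD and 42.3, 56.5, 39.3 and 51.2 CPM on the HPD, with overlap. The log2 diet difference was 0.49 ± 0.18 (SE) in Veh and 0.39 ± 0.16 in Cort (edgeR unadjusted p = 0.011 and 0.025, adjusted p = 0.34 and 0.17). In eWAT it was 15.9, 16.9, 18.8 and 15.9 CPM in Cort NPD and 23.5, 21.0, 25.0 and 22.1 CPM in Cort HPD. These groups did not overlap, and the difference was 0.45 ± 0.18 (edgeR unadjusted p = 0.019, adjusted p = 0.38). Slc30a1 was the 1 member of 5 without overlap in that comparison, against 6.7% of all genes, while in eWAT Veh mice 0 of 5 members and 4.28% of genes had separate groups. In eWAT Veh mice the diet difference was -0.01 ± 0.18. Cort against Veh lay between -0.22 and 0.23 for Slc30a1 over both tissues and diets, with edgeR adjusted p from 0.45 to 0.73. The red blood cell genes were also higher in eWAT Cort HPD, at 12676 to 25839 CPM against 3617 to 6486 CPM in Cort NPD, and this was not tested as a part of the difference.

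Slc30a10, the manganese exporter, was found in liver alone. No read was counted in any of the 16 eWAT libraries, which allows up to 0.223 CPM in the shallowest Veh NPD library at 3 counts. The Veh NPD liver mean of 36.7 ± 7.55 CPM (SD, n = 4) was thus at least 164-fold higher, in CPM scaled within each tissue. Per library, liver Slc30a10 was 44.4, 39.6, 36.2 and 26.5 CPM in Veh NPD and 26.0, 27.0 and 15.1 CPM in Veh HPD replicates 1 to 3. It was 25.6, 28.2, 42.0 and 43.4 CPM in Cort NPD and 25.7, 38.9, 29.9 and 40.4 CPM in Cort HPD. The lowest library of the fit was Veh HPD replicate 3, and the other Veh HPD libraries lay among the lower values of the other 3 groups. HPD against NPD in Veh mice was -0.69 ± 0.24 (SE, log2) and Cort against Veh on the HPD was 0.57 ± 0.24 (edgeR unadjusted p = 0.0087 and 0.026, adjusted p = 0.31 and 0.14), so that neither passed. The library left out held 2.80 CPM, far below the others, and with it these became -1.05 and 0.95 (edgeR adjusted p = 0.33 and 0.22). In Cort mice the diet difference was -0.05 ± 0.22.

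Slc39a8, the relative of Slc39a14, showed no difference that passed in either tissue. It lay between 6.58 and 18.4 CPM in eWAT and between 11.1 and 21.2 CPM in liver. In liver every difference was within 0.12 of 0 on the log2 scale, with SEs from 0.19 to 0.28. In eWAT the diet differences were -0.39 ± 0.27 in Veh and -0.49 ± 0.28 (SE) in Cort mice (edgeR adjusted p = 0.80 and 0.59).

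**Figure D3:**
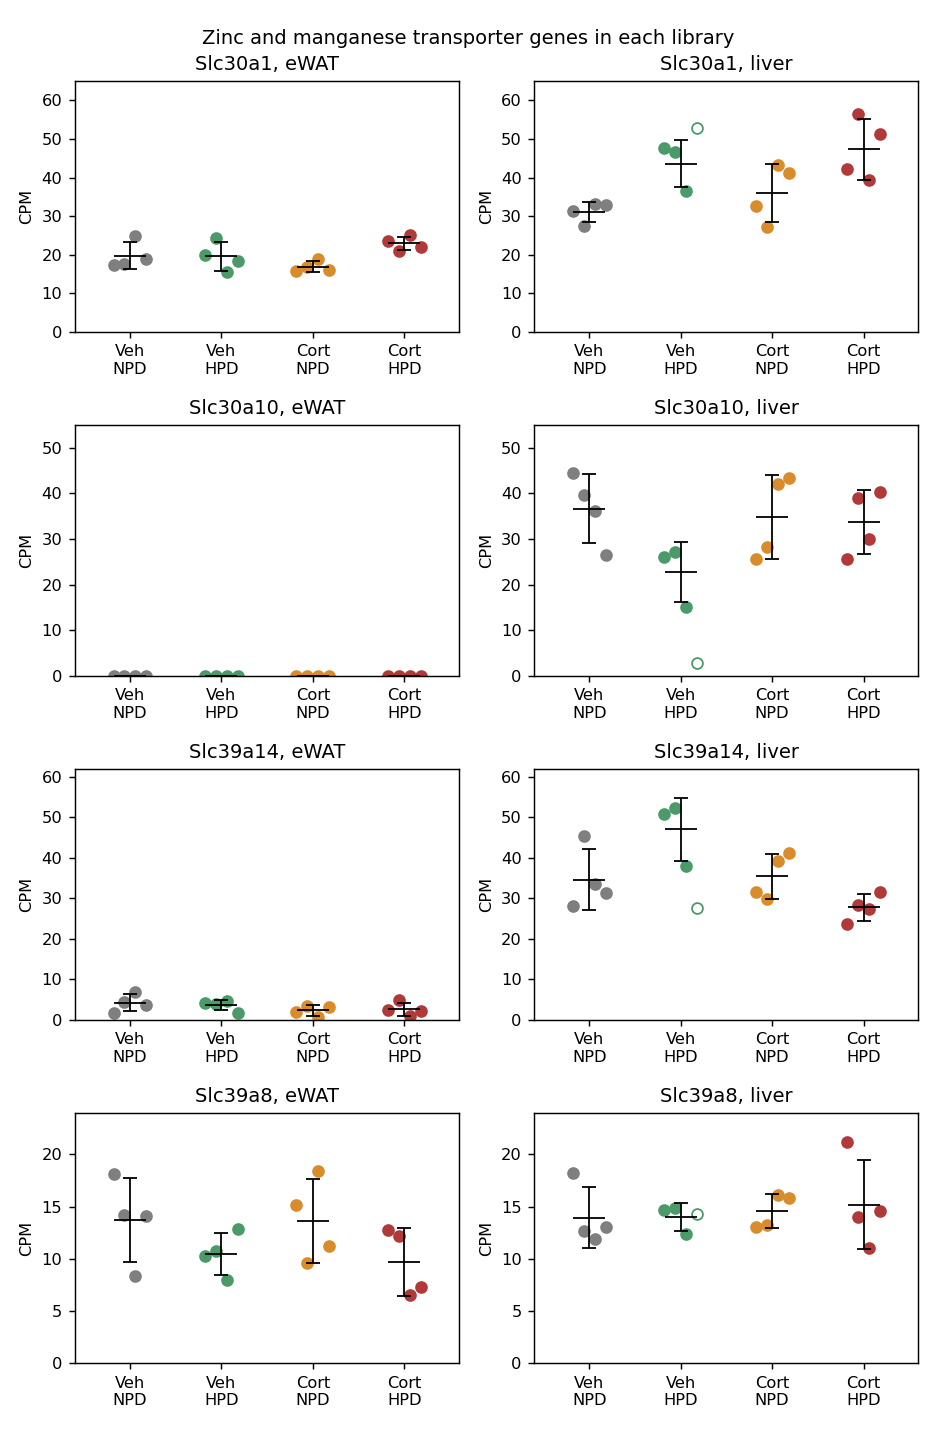
CPM of Slc30a1, Slc30a10, Slc39a14 and Slc39a8 (rows) in eWAT (left) and liver (right), on axes from 0, with 1 point per library, bars for the group mean ± SD, and the open circle for liver Veh HPD replicate 4, which is outside the mean. Slc30a10 is at 0 in all eWAT libraries, and Slc39a14 in liver is lower in Cort HPD (23.6 to 31.5 CPM) than in the 3 Veh HPD libraries of the fit (37.9 to 52.2 CPM).

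**Figure D4:**
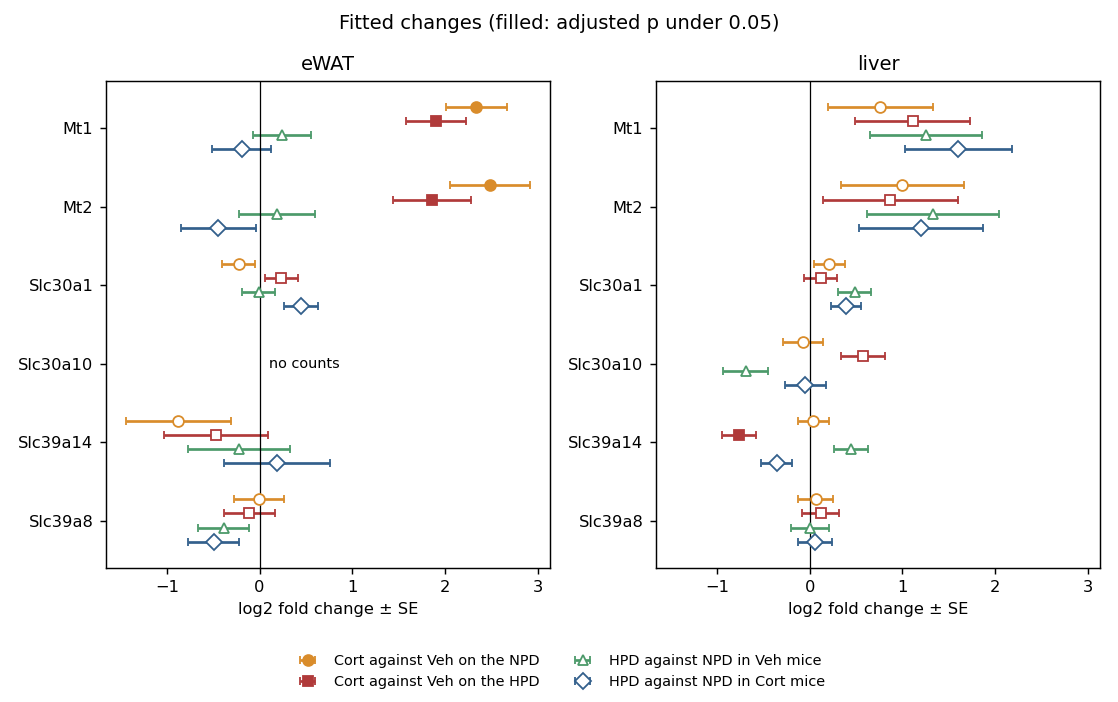
Log2 fold changes of the 6 genes in eWAT (left) and liver (right) for the 4 pairwise comparisons, with bars of 1 SE and filled symbols for an adjusted p under 0.05. The filled symbols are Mt1 and Mt2 for Cort on both diets in eWAT (1.86 to 2.49) and Slc39a14 for Cort on the HPD in liver (-0.76).

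Levels were also compared between the tissues in Veh NPD mice, in the fit of both tissues. Of all genes 62.7% were called, and 3 of the 5 members tested were called, all higher in liver. The log2 difference was 4.10 ± 0.40 (SE) for Slc39a14, or 17.2-fold, 1.70 ± 0.17 for Slc30a1, or 3.25-fold, and 1.07 ± 0.24 for Slc39a8, or 2.10-fold (edgeR adjusted p = 8.9e-10, 5.0e-11 and 2.5e-04). Mt1 at 0.80 ± 0.45 and Mt2 at 1.22 ± 0.55 did not pass (adjusted p = 0.13 and 0.058). DESeq2 called 4 of the 5, adding Mt2 (1.20, adjusted p = 0.023), and limma voom 3. Tissue differences depended on the scaling. This fit scaled both tissues together, with TMM factors from 0.518 to 1.52, whereas the CPM given here were scaled within each tissue. In those CPM, the Veh NPD means in liver and eWAT were 14.0 and 13.7 for Slc39a8 and 637 and 751 for Mt1. With plain library totals the median of all genes moved from -0.26 to -1.28, the difference of Mt1 turned to -0.23 and that of Slc39a8 was 0.06 (edgeR adjusted p = 0.83). Without liver Veh NPD replicate 3 both metallothionein genes passed, so that 5 members were called in place of 3.

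The other genes of zinc and copper handling were taken as a list of 30, holding the remaining Slc30 and Slc39 transporters, Mt3, Mt4, Mtf1, Tmem163 and 6 genes of copper handling. In eWAT, 22 had enough counts to be tested and none was called by edgeR in any comparison, with Cort or diet, against 7.98% and 6.09% of all genes for Cort on the NPD and HPD and 0.0593% and 0.487% for diet in Veh and Cort mice. At an unadjusted p under 0.05, 2 were below for Cort on the NPD, 4 for Cort on the HPD, 3 for diet in Veh mice, 0 for diet in Cort mice and 1 for the interaction, and for Cort on the HPD DESeq2 called 1 (Atox1) and limma voom 1 (Slc39a13). Nearest to the threshold were Slc39a13, a zinc transporter, for Cort on the HPD (0.51, edgeR adjusted p = 0.060) and Atox1, a copper chaperone, for Cort on the HPD (0.45, adjusted p = 0.062) and the NPD (0.41, adjusted p = 0.089). The median log2 fold change of the list with Cort in eWAT was 0.23 on the NPD and 0.28 on the HPD, against -0.02 and -0.00 for all genes. In liver 20 were tested. Cort on the NPD lowered Ccs, which delivers copper to superoxide dismutase (-0.61, edgeR adjusted p = 0.014), from 117 to 148 CPM with Veh to 67.1 to 107 CPM with Cort. The macrophage genes also separated between these groups, at 189 to 280 CPM with Veh and 88.4 to 180 CPM with Cort, and their part was not tested. Cort on the HPD lowered Slc39a4, a plasma membrane zinc importer (-1.11, adjusted p = 0.0074), and raised Slc30a9 (0.50, adjusted p = 0.022) and Atox1 (0.85, adjusted p = 0.037). The call of Ccs was lost without Cort NPD replicate 3, which held skeletal muscle transcripts (-0.53, edgeR adjusted p = 0.055), and with all 16 liver libraries (adjusted p = 0.092). That of Slc39a4 was lost without Veh HPD replicate 1, which held exocrine pancreas transcripts (-0.94, adjusted p = 0.055). That of Slc30a9 was lost without Veh HPD replicate 1 or 2 or Cort HPD replicate 4 (0.46 to 0.49, adjusted p = 0.056 to 0.081), and that of Atox1 without any 1 of the 3 Veh HPD libraries or of Cort HPD replicates 2, 3 and 4 (0.73 to 0.87, adjusted p = 0.067 to 0.10). No other gene of the list passed for Cort, so that 1 of 20 was called on the NPD and 3 of 20 on the HPD, where 12.6% and 9.89% of all liver genes were called. For diet in Veh mice, diet in Cort mice and the interaction, 0 of the 20 passed with edgeR, DESeq2 or limma voom, against 0.169%, 5.88% and 0.113% of all genes with edgeR, and 0, 2 and 1 had an unadjusted p under 0.05 with edgeR. The list's median with Cort in liver was 0.12 on the NPD and 0.05 on the HPD, against -0.01 and -0.00 for all genes. Mtf1, the metal-sensing factor, lay between 10.7 and 24.2 CPM over both tissues, and its Cort differences of 0.05 to 0.37 did not pass. Slc39a7 is listed at 0 in all 32 libraries.

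**Figure D5:**
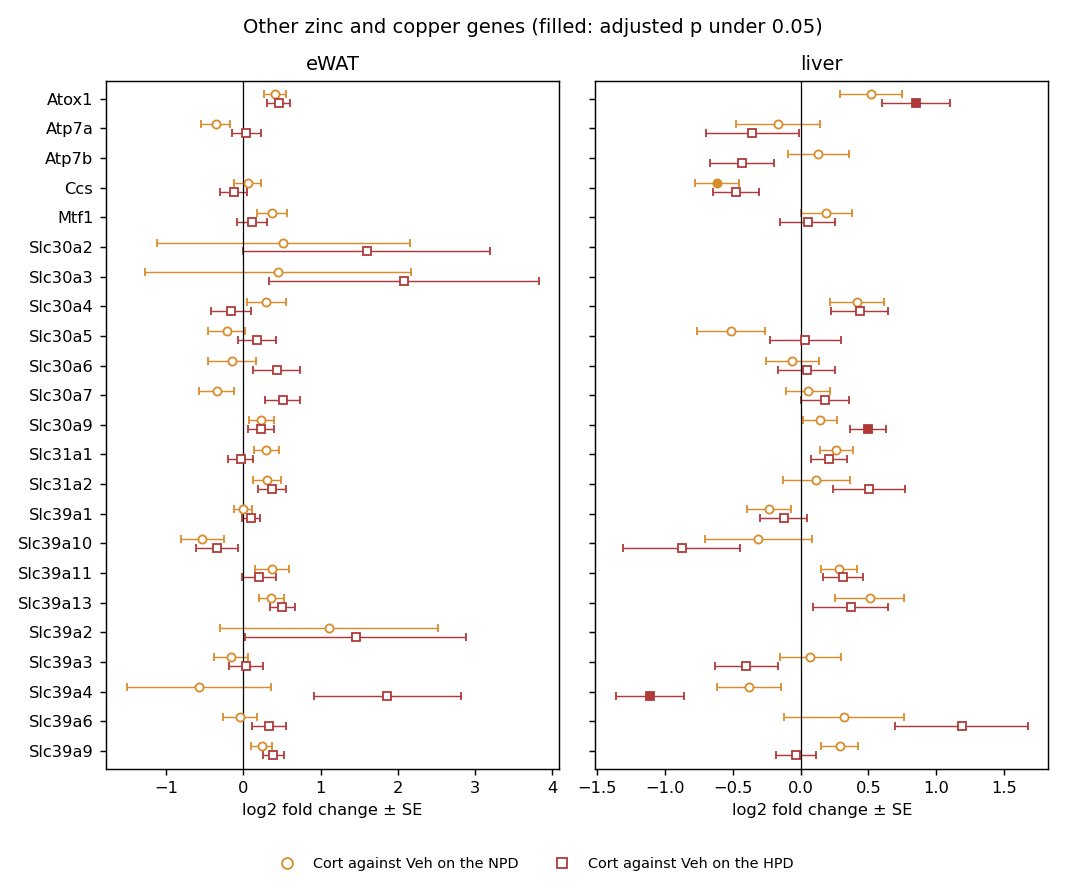
Log2 fold changes with Cort on the NPD (circles) and the HPD (squares) for the other zinc and copper genes tested, in eWAT (left) and liver (right, on its own axis), with bars of 1 SE and filled symbols for an adjusted p under 0.05. The filled symbols, all in liver, are Ccs on the NPD (-0.61) and Slc39a4 (-1.11), Slc30a9 (0.50) and Atox1 (0.85) on the HPD.

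The genes whose levels ran most like the metallothioneins were found by Pearson correlation of log2 CPM with the mean log2 CPM of Mt1 and Mt2. Over 16 eWAT libraries these were Rbms2 (0.969), Fam129b (0.968) and Dctn3 (0.967). All 3 were higher with Cort on both diets, with log2 fold changes from 0.95 to 1.48. Group means were not removed for the pick, so a rise with Cort in eWAT was built into it. Over 15 liver libraries they were Nipal1 (0.872), Slc16a5 (0.865) and Pafah1b2 (0.859). Slc16a5 rose with Cort on the NPD in liver (2.17, edgeR adjusted p = 0.0023) and did not pass on the HPD (1.26, adjusted p = 0.056). Nipal1 and Pafah1b2 passed on neither diet. The libraries share groups and depth, and these values are a description without a test.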

How the data were processed

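QuantSeq 3′ mRNA libraries of eWAT and liver were analysed, 4 for each of 8 groups taken from the sample titles. The authors deposited raw counts of reads per Ensembl gene, 1 column per library, without normalization. Per the labels, the submitters' processing notes name GRCm38, R 4.0.3 and limma; the aligner and the counting program are not given in the sources used here. Of 47643 IDs, 47224 had a symbol in GENCODE. The counts were fitted with edgeR 4.0.16 (R 4.3.3): filterByExpr (minimum count 10, minimum total count 15), TMM scaling, robust quasi-likelihood fits and F-tests, with Benjamini-Hochberg adjustment over all genes tested and a threshold of 0.05. Each tissue was fitted with its 4 group means (16 eWAT and 15 liver libraries), and tissue differences came from 1 fit of 31 libraries. SE is the log2 fold change divided by the root of F. Liver Veh HPD replicate 4 was left out of the fits, a choice for which the study's methods give no reason, and its CPM uses the factor from a fit of all 16 liver libraries. Fits were tested on simulated data. The members and lists were chosen with earlier results of these data known. Named genes were the members, list genes called within a tissue, the 3 genes per tissue most like the metallothioneins, and the treatment check genes. Alternatives were RLE factors, library totals, no filter, DESeq2 1.42.0, limma voom (limma 3.58.1), only the groups compared, a replicate block, all liver libraries and leaving out each library. Marker lists for cell types were summed in CPM. P-values measure the spread between the libraries of a group, and the labels do not name the mouse behind each. Totals of 8933307 to 18057936 counts make counting error small for the metallothioneins, whereas Slc39a14 in eWAT had at most 100 counts in a library.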

Additional observations from a re-analysis of the deposited data

Results flagged for a closer look

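Slc39a8 in liver Veh NPD replicate 1 was 18.2 CPM, far from the other 3 libraries of its group (11.9 to 13.0 CPM). Of 38 sets of 4 libraries examined this way, 1 stood out, and chance alone sets apart about 1 in 20. Leaving this library out moved the fitted Cort difference of Slc39a8 on the NPD in liver from 0.06 to 0.21 and turned its interaction to -0.09, and no call changed.

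Slc30a1 in liver Veh HPD replicate 4, the library outside the comparisons, was 52.9 CPM, above every Veh library of the fit (27.4 to 47.7 CPM). With that library added, the diet difference of Slc30a1 in Veh mice was 0.56 and did not pass (edgeR adjusted p = 0.16).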

How the results depend on the processing

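Of the members' fitted differences recomputed under alternatives other than leaving out a library, 503 kept their sign and their side of the threshold, 5 passed where they had not, 2 no longer passed and 10 changed sign. With library totals, the tissue level of Mt1 changed sign from 0.80 to -0.23. In liver, library totals also turned Slc30a1 (-0.10) and Slc39a8 (-0.14) for Cort on the HPD. They turned Slc39a8 for diet in Cort mice (-0.14) and for the interaction (-0.19) there too. The replicate block turned Slc39a8 for Cort on the NPD in eWAT (0.04) and Slc39a14 for the tissue difference on the HPD (0.02). With only the groups compared, Slc30a1 turned for diet in eWAT Veh mice (0.00). With RLE factors and DESeq2, Slc39a8 turned for diet in liver Veh mice (-0.00 and -0.01). The members called changed from 1 to 0 for Cort on the HPD in liver with all 16 liver libraries, and from 0 to 1 with DESeq2 and to 2 with only the groups compared for diet in liver Cort mice. The cause of these changes was not tested.

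Leaving out 1 library kept sign and call of the members' differences 644 times, changed the sign 53 times, lost a call 4 times and gave one 4 times. Members called ranged from 1 to 2 (Cort on the HPD, eWAT), 0 to 1 (Cort on the HPD, liver), 0 to 1 (tissue difference on the NPD) and 3 to 5 (tissue level). Ranges that crossed 0 were, in eWAT, -0.19 to 0.16, -0.28 to 0.04 and -0.27 to 0.08 for Slc39a8 (Cort on the NPD, Cort on the HPD, interaction), -0.15 to 0.42, -0.14 to 0.12 and -0.48 to 0.12 for diet in Veh mice (Mt2, Slc30a1, Slc39a14), and -0.27 to 0.47 and -0.05 to 0.70 for Slc39a14 (diet in Cort mice, interaction). In liver they were -0.21 to 0.05, -0.06 to 0.18 and -0.02 to 0.21 for Cort on the NPD (Slc30a10, Slc39a14, Slc39a8), -0.08 to 0.24 for Slc39a8 with Cort on the HPD, -0.07 to 0.16 for Slc39a8 with diet in Veh mice, -0.17 to 0.09 and -0.14 to 0.18 for diet in Cort mice (Slc30a10, Slc39a8), and -0.21 to 1.03, -0.69 to 0.92, -0.21 to 0.02 and -0.14 to 0.18 for the interaction (Mt1, Mt2, Slc30a1, Slc39a8). For the tissue difference they were -0.10 to 0.28 for Slc39a8 on the NPD, and -0.53 to 0.19 and -0.01 to 0.41 for Slc39a14 and Slc39a8 on the HPD.

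Library totals moved the median of all genes to -0.24 for Cort on the HPD, -0.18 for diet in Cort mice and -0.22 for the interaction in liver, and to -0.11 for Cort on the NPD in eWAT from medians of -0.02 to -0.00. The calls higher and lower then split 275 to 1272 in place of 589 to 637 for Cort on the HPD in liver, 221 to 730 in place of 382 to 347 for diet in liver Cort mice, 673 to 719 in place of 848 to 717 for Cort on the NPD in liver, 435 to 769 in place of 615 to 597 and 438 to 459 in place of 525 to 400 for Cort on the NPD and HPD in eWAT. Counts of all genes called moved most where few were called: diet in eWAT Veh mice from 9 to between 4 (only the groups compared) and 126 (DESeq2), the interaction in liver from 14 to between 1 (all 16 libraries) and 130 (DESeq2) and in eWAT from 2 to between 0 and 14, diet in liver Veh mice from 21 to between 7 and 113, and diet in eWAT Cort mice from 74 to 195 with DESeq2 and 165 with only the groups compared. With all 16 liver libraries 998 in place of 1565 genes were called for Cort on the NPD and 371 in place of 729 for diet in Cort mice. Without Veh HPD replicate 1, 581 in place of 925 genes were called for Cort on the HPD in eWAT and 714 in place of 1226 in liver, and without Cort NPD replicate 3, 356 in place of 729 for diet in liver Cort mice. Leaving out 1 library gave 5 to 64 genes for diet in eWAT Veh mice (64 without Veh HPD replicate 3), 0 to 6 for the interaction in eWAT, 2 to 39 in liver (39 without Veh HPD replicate 1), 5 to 34 for diet in liver Veh mice (34 without Veh HPD replicate 3) and as few as 26 for diet in eWAT Cort mice (without Cort NPD replicate 1). The Cort difference between tissues gave 422 in place of 635 on the NPD (limma voom), and 330 (only the groups compared) to 842 (DESeq2) in place of 514 on the HPD.

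Within a tissue, replicate numbers showed no pairing of libraries of different groups. Correlations of deviations from group means exceeded 0.1 in 1 of 24 same-numbered eWAT pairs and 3 of 21 liver pairs. With other numbers this held for 3 of 72 and 8 of 63 pairs. Between eWAT and liver of the same group, the median was 0.02 over 15 same-numbered pairs (1 above 0.1). It was -0.01 over 45 pairs with other numbers (0 above 0.1). This difference was not tested, and the fit of both tissues treated libraries as independent. A replicate block changed no call of a member except that Mt2 passed for the tissue level (0.84, edgeR adjusted p = 0.013), and it took the interaction in eWAT from 2 to 9 genes. The alternatives for list and treatment check genes were added after the data were seen. Their calls within a tissue were kept 64 times and lost 14 times under alternatives other than leaving out a library. Leaving out 1 library kept them 49 times and lost them 26 times, and not every loss is named above. DESeq2 gave no adjusted p for 4 member differences in eWAT. Depth limits Slc39a14 in eWAT, and 8 list genes in eWAT and 10 in liver had too few counts to be tested.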

Other observations

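Libraries of eWAT and liver that carry the same group and number were compared, although the labels do not say that they come from 1 mouse. Over 15 such pairs, with group means removed, the log2 CPM of Mt1 correlated between the tissues with a Pearson r of 0.80 and a Spearman rho of 0.65 (exact permutation test within groups, two-sided p = 0.036 and 0.056). For Mt2 r was 0.87 and rho 0.73 (exact permutation p = 0.027 and 0.053), and for Slc39a8 r was 0.67 and rho 0.71 (exact permutation p = 0.025 and 0.014). Slc30a1 had an r of 0.25 and Slc39a14 of 0.03 (exact permutation p = 0.35 and 0.92), with rho of 0.20 and -0.04 (p = 0.47 and 0.90). Adjusted over the 5 genes, the p-values of r for Mt1, Mt2 and Slc39a8 were each 0.060 and those of rho 0.093, 0.093 and 0.068, so that none passed. Without the 2 pairs farthest from the median in eWAT, r was 0.55, 0.71 and 0.55. Within single groups r ran from -0.91 to 0.97 for Mt1 and from -0.90 to 0.98 for Mt2, so the pooled value does not hold in every group. Over 11635 genes the median r was 0.05. An r at least that of Mt1 was held by 27 genes, Mt1 included, and at least that of Mt2 by 3 genes, Mt2 included. This comparison was chosen after the values were seen.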
